A study of Mus musculus with 6 samples.

Results

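Histones are the proteins around which DNA is wound, and their genes were followed here in mouse oocytes with and without normal Marf1. The members are the genes with a core, variant or linker histone symbol that a probe set of the array names alone, 1 probe set per gene, the one with the highest mean over the 6 arrays where there were several. There were 48 such genes among 19938 measured ones. A further 47 probe sets name several genes, at least 1 of them a histone, and are described apart. Fully-grown oocytes at the germinal-vesicle stage, a stage at which transcription is largely silent, came from 3 samples of Marf1+/+ females and 3 samples of Marf1 ENU/ENU females, in which both copies carry a chemically induced mutation. The strain of both groups is labelled C57BL/6J;C3HeB/FeJ. All females received 5 IU of eCG, a hormone that makes follicles grow, at 21 days of age for 46 hours, so the oocytes were taken at 23 days. The cumulus cells had been stripped off by pipetting, and the number of oocytes or animals behind a sample was not stated in the labels.

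Core histones H2A, H2B, H3 and H4 form the nucleosome, and linker histone H1 binds the DNA between nucleosomes. Replication-dependent histone genes lie in clusters, serve new DNA in S phase, and make mRNAs that end in a stem-loop in place of a poly(A) tail. Replacement variants such as H2A.Z and H3.3 are made from separate genes with polyadenylated mRNAs at any time, and a further set is made in germ cells. Oocytes build a store of histones and histone mRNAs for the embryo, and that store is used after fertilisation.

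Values are log2 expression after RMA, a normalization meant to bring the arrays to a common distribution. A difference is therefore a change against the rest of the same array. In these bulk samples, fewer cells of a type and less RNA per cell cannot be told apart. Marf1 itself read 9.21, 9.16 and 9.31 in wild type and 5.98, 6.40 and 6.16 in the mutant, a difference of -3.05 (SE 0.15, limma adjusted p = 0.0001). The position of its probes relative to the mutation was not analysed here, so this checks the labels only in part. Array medians were 4.56 to 4.76, and SDs over all rows 2.043 (mutant replicate 3) to 2.197 (mutant replicate 1). The deposited values thus do not share 1 exact distribution. Mutant replicate 3 stood apart from the other mutants (r = 0.970 and 0.973, against 0.984 to 0.985 within wild type), and counts without it are given below. Nothing in the labels ties the samples of a group to separate animals, and p-values here rest on the scatter of these 3 samples a group, which may be technical. The 14 oocyte markers had 0 members past the threshold of an adjusted p under 0.05 in limma, where 10.4% of all genes passed. At an unadjusted p under 0.05 in limma 2 were lower and 0 higher, where 13.5% of all genes were lower and 11% higher. With 14 genes such counts say little. Gdf9 stood at 11.73 in wild type and 11.65 in the mutant.

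The upstream sequences of the genes that changed most are shown first. They come from RefSeq (GRCm38.p6), 5′ to 3′, up to the base before the start of transcription. Capitals mark 3 motifs, searched on both strands and not overlapping in these windows. They are CCAAT (the CCAAT box), the TATA-box letters TATAAA, and the octamer ATTTGCAT, known from H2B promoters. H2bc1 and H2ac1 face away from each other, and 280 bases lie between their starts (chr13:23934157-23934436, plus strand, H2bc1 reading to the left). The other windows are the 250 bases before H4c4 (chr13:23581318-23581567, plus strand) and before H2az1 (chr3:137864237-137864486, plus strand).
H2bc1 and H2ac1: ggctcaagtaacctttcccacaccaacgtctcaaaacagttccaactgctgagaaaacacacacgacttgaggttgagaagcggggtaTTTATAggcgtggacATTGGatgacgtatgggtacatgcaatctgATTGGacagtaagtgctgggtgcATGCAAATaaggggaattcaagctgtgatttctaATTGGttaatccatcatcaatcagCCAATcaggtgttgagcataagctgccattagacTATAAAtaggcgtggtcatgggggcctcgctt
H4c4: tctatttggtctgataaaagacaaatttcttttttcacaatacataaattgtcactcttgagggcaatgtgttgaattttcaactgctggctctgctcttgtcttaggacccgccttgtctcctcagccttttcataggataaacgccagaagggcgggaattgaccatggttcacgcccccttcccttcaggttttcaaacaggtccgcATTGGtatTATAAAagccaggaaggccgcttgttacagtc
H2az1: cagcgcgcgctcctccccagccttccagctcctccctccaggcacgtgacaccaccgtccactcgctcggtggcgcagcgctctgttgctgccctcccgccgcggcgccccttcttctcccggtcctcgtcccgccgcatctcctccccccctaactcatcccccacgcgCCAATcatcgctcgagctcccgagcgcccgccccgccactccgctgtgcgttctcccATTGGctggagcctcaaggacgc

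The stretch between H2bc1 and H2ac1 held TATAAA 2 times (bases 89 to 94, on the minus strand, and 249 to 254, counted from the first base printed), CCAAT 4 times and the octamer 1 time. The H4c4 window held CCAAT 1 time and TATAAA 1 time. In the H2az1 window CCAAT was found 2 times, and TATAAA and the octamer were not. Of the 48 members, 41 had a promoter in the RefSeq table, taken as the first listed window. Among 23 replication-dependent members, 18 held CCAAT (78.3%, against 34.5% of 27025 genes), 13 held TATAAA (56.5%, against 13%) and 7 the octamer (30.4%, against 1.61%). Of 11 germline members, H2bc1 and H2ac1 among them, 8 held CCAAT, 3 TATAAA and 2 the octamer. Of 7 replacement genes, 4 held CCAAT, 0 held TATAAA and 0 the octamer. TATAAA was held by 16 of the 41, so it is not particular to H4c4, H2bc1 and H2ac1. The other genes that held it had differences between genotypes from -0.48 (H1f1 and H4c6) to 0.24 (H1f3), with H1f5 at 0.07 and H2bu2 at 0.08. H1f3 had a low mean over the 6 arrays (3.05), so its difference says little. Among genes that did not hold it, H4f16 (-0.69) and H2bc9 (-0.57) were lower and H2az1 (2.08) was higher. Whether the motif bears on the differences was not tested. The motifs are matches of letters and no evidence of binding.

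Among the 48 histone genes, H4c4, H2bc1 and H2ac1 fell and H2az1 rose. A fall was called in 4.04% and a rise in 6.4% of all genes, so 3 falls and 1 rise among 48 is a share near the background (8.33% of members changed, against 10.4% of all genes). At an unadjusted p under 0.05 in limma 9 members were lower and 1 higher, where 13.5% of all genes were lower and 11% higher. In 10 members all 3 mutant values lay below all 3 wild-type values (17.7% of all genes), and in 3 above (12.9%). The difference was below 0 in 33 members (56% of all genes), and the median of the members was -0.10, against -0.04 over all genes. No filter on low values was used. Both genotype means of 19 members lay below 4.53, the level under which 95% of 1194 olfactory and vomeronasal receptor genes lay in their means over the arrays. Genes with both means below it are called dim here, and 0 of them passed even the unadjusted threshold. Of the 29 members with a mean over the 6 arrays above 4.53, 13.8% passed the adjusted threshold. Of the 12310 genes with such a mean 16.3% did. The median difference of the 29 was -0.31, against -0.09 over those genes.

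**Figure D1:**
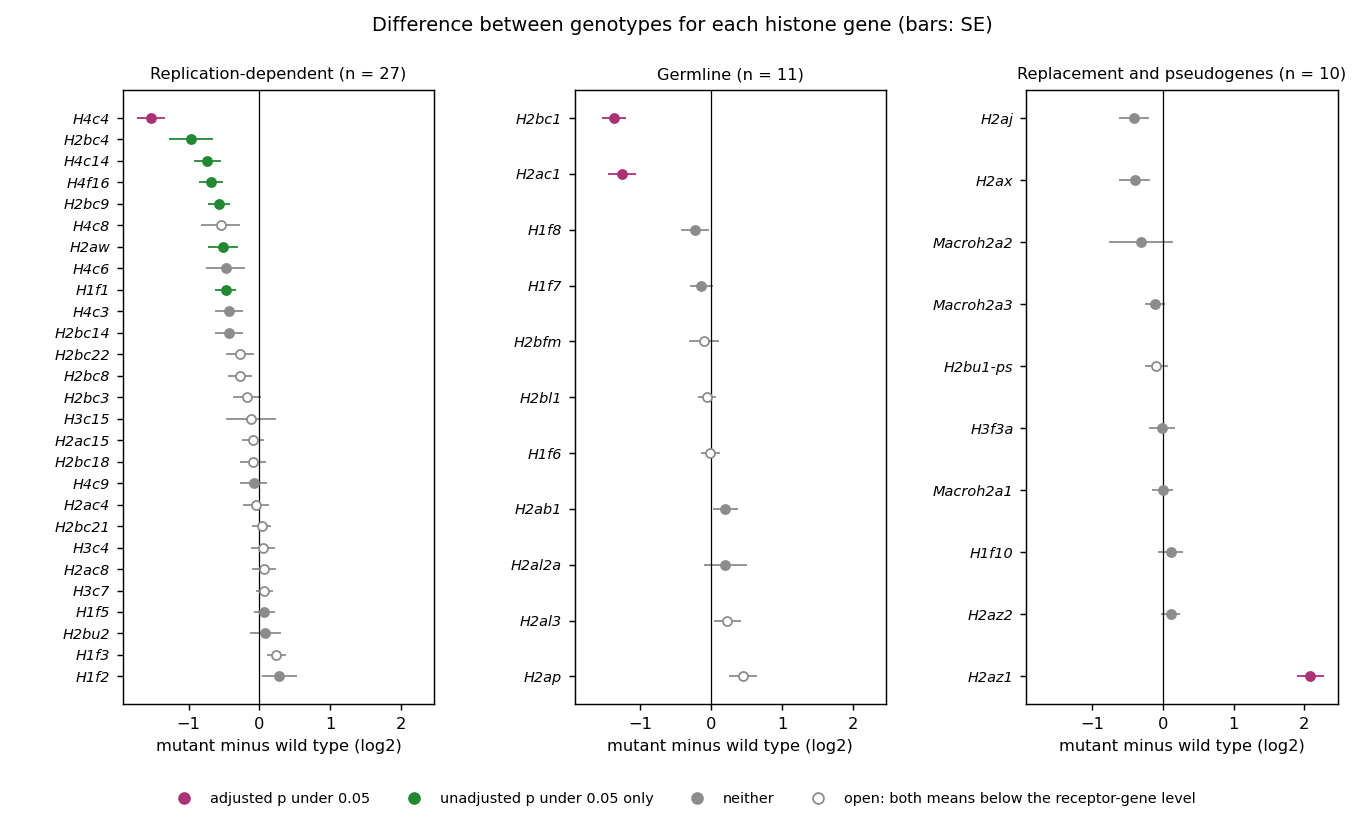
Difference between genotypes (mutant minus wild type, log2, x axis) for each of the 48 histone genes, split into 27 replication-dependent, 11 germline and 10 replacement genes and pseudogenes. Points are differences, bars standard errors from limma with 3 arrays a group, and open points have both means below 4.53. H4c4, H2bc1 and H2ac1 lie farthest to the left and H2az1, at 2.08, farthest to the right.

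The core histone gene H4c4 (probe set 10404051), which encodes histone H4, had the largest fall of the members. It read 8.43, 8.06 and 7.95 in wild type and 6.96, 6.50 and 6.39 in the mutant. The groups did not overlap. The means were 8.15 ± 0.25 and 6.62 ± 0.30 (SD, n = 3 each), which is -1.53 on the log2 scale or 2.89-fold lower (SE 0.20, adjusted p = 0.00411 in limma). The 7 single-gene H4 probe sets had a difference below 0, with a median of -0.55, and under cyclic loess 6 of 7 did.

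H4c14 read 7.20, 6.98 and 7.44 in wild type and 6.42, 6.23 and 6.74 in the mutant (-0.74, SE 0.19, adjusted p = 0.0572). H4f16 read 5.78, 5.37 and 5.86 against 4.84, 5.05 and 5.05 (-0.69, SE 0.17, adjusted p = 0.0533). In both genes the groups did not overlap and the adjusted p just missed the threshold. H4c14 passed without mutant replicate 3 (adjusted p = 0.0325) and H4f16 without wild type replicate 2 (adjusted p = 0.0398). H4c8, H4c6, H4c3 and H4c9 had differences of -0.55, -0.48, -0.43 and -0.08, and H4c8 was dim.

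H2bc1 and H2ac1 encode TH2B and TH2A, germline forms of H2B and H2A known from testis and oocytes, and share the stretch printed above. H2bc1 (probe set 10408266) read 8.26, 7.81 and 8.17 in wild type and 6.70, 6.87 and 6.55 in the mutant. H2ac1 (probe set 10404127) read 8.59, 8.20 and 8.81 against 7.09, 7.55 and 7.19. For both genes every mutant array lay below every wild-type array. The differences were -1.37 (SE 0.17, 2.59-fold lower, limma adjusted p = 0.00294) and -1.26 (SE 0.20, 2.39-fold lower, adjusted p = 0.0102). H4c4, H2bc1 and H2ac1 kept their calls in each of 15 alternative fits, including every fit that left out 1 array.

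The other 9 germline genes did not pass. H1f8, the linker histone made in oocytes, read 10.48, 10.14 and 10.44 in wild type and 10.51, 9.96 and 9.89 in the mutant, and the groups overlapped (-0.23, SE 0.20, adjusted p = 0.636). H1f6, a linker histone known from testis, read 4.06, 4.22 and 4.15 against 4.19, 3.96 and 4.25 (-0.01). H1f7, which is made in spermatids, read 5.24, 4.77 and 5.07 against 4.85, 4.83 and 4.98 (-0.14). Both overlapped. The H2A forms H2ap, H2al3, H2ab1 and H2al2a had differences of 0.45, 0.23, 0.20 and 0.20, and the H2B forms H2bfm and H2bl1 of -0.10 and -0.06. H1f6, H2ap, H2al3, H2bfm and H2bl1 were dim.

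Of the 9 replication-dependent H2B genes 0 passed (2 lower and 0 higher at an unadjusted p under 0.05 in limma). H2bc4 read 9.75, 9.30 and 9.25 in wild type and 8.78, 8.87 and 7.75 in the mutant (-0.97, SE 0.31, adjusted p = 0.119). Mutant replicate 3 was its lowest array, and the difference was -0.61 without it. H2bc9 read 7.67, 7.60 and 7.97 against 7.03, 7.17 and 7.32 (-0.57, SE 0.16, adjusted p = 0.0772). In both, all mutant arrays lay below all wild-type arrays. H2bc14 differed by -0.43, also without overlap, and H2bu2 by 0.08. H2bc22, H2bc8, H2bc3, H2bc18 and H2bc21 were dim, with differences from -0.28 to 0.03.

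The replication-dependent H2A gene H2aw read 7.99, 7.98 and 7.43 in wild type and 7.05, 7.56 and 7.24 in the mutant, with overlap (-0.52, SE 0.21, adjusted p = 0.224). H2ac15, H2ac4 and H2ac8 were dim, with differences of -0.09, -0.05 and 0.06. So were the H3 genes H3c15, H3c4 and H3c7, at -0.12, 0.05 and 0.07, and the H3.1 and H3.2 genes were therefore read mainly through the shared probe sets below. Of the replication-dependent linker genes, H1f1 read 7.02, 7.08 and 7.39 against 6.64, 6.72 and 6.69, without overlap (-0.48, SE 0.15, adjusted p = 0.109). H1f2 read 6.38, 5.79 and 6.77 against 6.58, 6.42 and 6.77 (0.28, adjusted p = 0.655). H1f5 and H1f3 had smaller differences above 0, and all 3 genes overlapped between the groups. H1f5 read 4.70, 4.99 and 4.68 against 4.74, 4.87 and 4.96 (0.07), and the dim H1f3 read 3.00, 2.94 and 2.86 against 3.25, 3.27 and 2.99 (0.24).

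**Figure D2:**
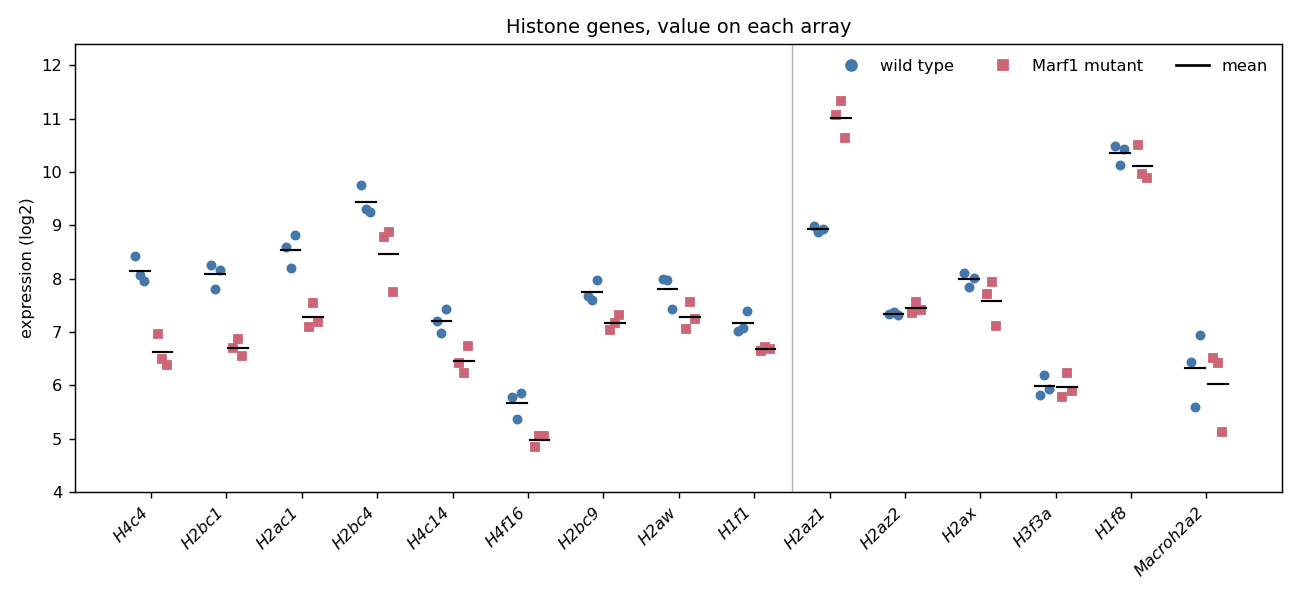
Log2 expression on each array (y axis) of 15 histone genes (x axis) in 3 wild-type (circles) and 3 Marf1-mutant samples (squares), with group means as lines. Left of the grey line stand the 9 members lower at an unadjusted p under 0.05, right of it H2az1 and 5 further genes. H2az1 rose from 8.93 to 11.01, and the other 5 overlap.

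H2az1, which encodes the H2A.Z replacement variant found at promoters, moved the other way. Its probe set (10540999) read 8.99, 8.88 and 8.93 in wild type and 11.06, 11.34 and 10.64 in the mutant. Every mutant array stood far above every wild-type array. The means were 8.93 ± 0.06 and 11.01 ± 0.35 (SD, n = 3 each), a difference of 2.08 (SE 0.19, 4.23-fold higher, limma adjusted p = 0.000792). A separate probe set of the gene (10496379) gave 8.84, 8.74 and 8.63 against 10.92, 11.22 and 10.54, a difference of 2.16 (SE 0.19, 4.46-fold higher, adjusted p = 0.000682). Which locus each probe set reads was not tested. H2az1 passed in each of 15 alternative fits, with differences of 1.92 to 2.27.

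H2az2, which encodes a near-identical H2A.Z protein, read 7.34, 7.38 and 7.31 in wild type and 7.36, 7.57 and 7.42 in the mutant. Its difference was 0.11 (SE 0.13, adjusted p = 0.764), and the groups overlapped. H2ax, the variant phosphorylated at DNA breaks, read 8.10, 7.85 and 8.01 against 7.71, 7.93 and 7.11, with overlap (-0.40, SE 0.22, adjusted p = 0.391). H2aj differed by -0.41, with overlap. The replacement linker gene H1f10 read 6.17, 6.06 and 6.38 against 6.40, 6.02 and 6.53 (0.11, adjusted p = 0.825). The macroH2A genes, whose proteins carry a large extra domain, did not pass. Macroh2a2 read 6.43, 5.60 and 6.95 against 6.51, 6.41 and 5.13 (-0.31, SE 0.45), with mutant replicate 3 the lowest array. Macroh2a1 also overlapped (adjusted p = 0.994). The pseudogenes Macroh2a3 and H2bu1-ps differed by -0.11 and -0.09. H3f3a, an H3.3 gene, read 5.82, 6.20 and 5.93 against 5.78, 6.24 and 5.89, a difference of -0.01 (SE 0.18, adjusted p = 0.984). Probe sets naming H3f3a together with Gm12657 stood much higher, at 10.39 to 10.52 on average, and are among the shared ones below. A probe set's level depends on its probes, so levels are not compared between genes.

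Probe sets shared by copies of the clustered genes were lower in the mutant in the H4 and H2B families. Of 47 shared probe sets 13 fell and 0 rose, where 7.78% of all probe sets changed, 3% lower and 4.78% higher. At an unadjusted p under 0.05 in limma 24 were lower (10.7% of all probe sets) and 0 higher (9.23%). A difference below 0 was found in 42 of the 47, against 52.4% of all probe sets. Of these 42, 12 name H2A.L genes and had means over the 6 arrays below 4.53. The shares over all probe sets include many rows of low level. In a fit of only the rows above the median level, 14 of 32 shared rows fell and 0 rose. In that fit 1646 of all 17766 rows fell and 1922 rose. The 47 rows name overlapping sets of near-identical genes, and 5 of them repeat the values of another row. They are therefore not independent and name no single gene. Their count was not stable to leaving out arrays. It was 2 without wild type replicate 1, 2 without wild type replicate 3 and 6 without mutant replicate 1, and it was 10 without mutant replicate 3.

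Probe sets naming the same 11 H4 genes, among them H4c1, H4c4 and H4c9, fell in all 5 rows (4 distinct), by 1.12 to 1.25 on the log2 scale. The row with the largest difference read 9.43, 9.08 and 9.67 in wild type and 8.38, 8.12 and 7.94 in the mutant, without overlap (-1.25, SE 0.20, limma adjusted p = 0.00894). The other distinct H4 rows read 8.80, 8.40 and 9.01 against 7.75, 7.28 and 7.67 (-1.17), 9.40, 9.10 and 9.64 against 8.37, 7.92 and 8.38 (-1.16), and 9.69, 9.37 and 9.98 against 8.64, 8.44 and 8.60 (-1.12). Every one of them separated the genotypes. A row naming only H4c17 and H4c11 was dim and differed by -0.06. Rows naming 14 or 15 genes, nearly all H2B, fell in all 7 cases (6 distinct), by 0.80 to 1.05. The largest of these read 8.21, 7.97 and 8.40 against 7.20, 7.38 and 6.84, without overlap (-1.05, SE 0.19, adjusted p = 0.0160). Next came 8.20, 7.84 and 8.33 against 7.23, 7.31 and 6.69 (-1.05), 8.11, 7.74 and 8.28 against 7.14, 7.23 and 6.63 (-1.04), and 7.73, 7.44 and 7.73 against 6.76, 6.86 and 6.43 (-0.95). The smallest falls were 8.05, 7.59 and 8.19 against 7.17, 7.29 and 6.79 (-0.86) and 7.54, 7.28 and 7.75 against 6.72, 6.92 and 6.54 (-0.80). All of these also separated the genotypes. Both sets include genes with a probe set of their own, H4c4 among the H4 rows and H2bc4 among the H2B rows. The H2B rows of 15 genes, which include the row with the largest difference, also name H2bc1, so they are not separate from its fall.

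Of the 2 rows naming 19 or 20 genes, nearly all H2A, 1 fell. It read 8.13, 7.91 and 8.38 in wild type and 7.26, 7.29 and 7.43 in the mutant (-0.81, SE 0.16, limma adjusted p = 0.0233), without overlap. The other had a difference of -0.55 (adjusted p = 0.179). Of these 13 calls, 2 H4 rows kept theirs in every fit without 1 array. The H2A row lost it without wild type replicates 1 and 3 and mutant replicates 1 and 2 (adjusted p 0.0740 to 0.0883).

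The 10 rows naming 12 H3.1 and H3.2 genes had differences of -0.75 to -0.33, of which 0 passed (9 lower and 0 higher at an unadjusted p under 0.05 in limma). The row with the largest difference read 7.06, 6.56 and 7.20 in wild type and 6.19, 6.56 and 5.81 in the mutant, so a value was shared between the groups (-0.75, SE 0.24, adjusted p = 0.122). The 6 rows naming an H3.3 gene with another gene (H3f3a with Gm12657 or H3f3b with Gm6485) stood at 10.05 to 10.52 on average. Their differences were -0.13 to 0.20, with overlap in all 6. With cyclic loess 4 of these 6 were above 0, where 2 were before. Of 14 rows naming H2A.L genes, made in sperm cells, 0 passed, with differences of -0.27 to 0.11. Their means over the 6 arrays were 3.83 to 4.47, below 4.53. The remaining rows, H2aw with Trim17 (-0.52) and H2bc6 with H1f4 (0.27), did not pass.

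**Figure D3:**
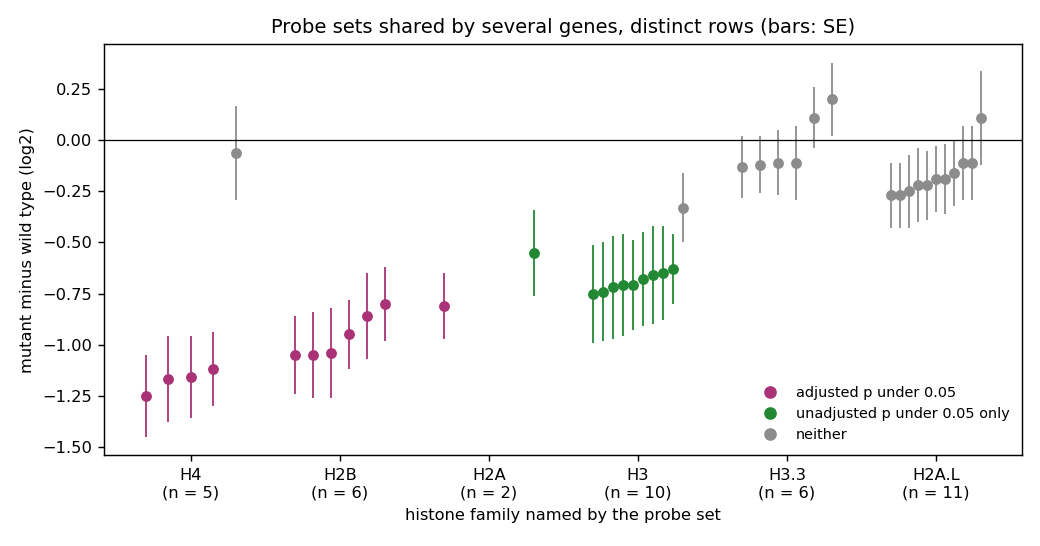
Difference between genotypes (mutant minus wild type, log2, y axis) for the distinct probe sets that name several genes, by histone family (x axis), with standard errors from limma as bars. The 6 H2B rows and 4 of 5 H4 rows passed, the H3 rows lay between -0.75 and -0.33, and the H3.3 rows at 10.05 to 10.52 lay around 0.

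Genes that make and destroy replication-dependent histone mRNA changed in both directions. Of 26 on the list, 6 rose and 1 fell (6.4% and 4.04% of all genes), and 11 were higher and 6 lower at an unadjusted p under 0.05 in limma (11% and 13.5%). Every gene of this list had a mean over the 6 arrays above 4.53. Of the 12310 genes with such a mean 16.3% were called (1231 higher and 779 lower), against 26.9% of the list. The median difference was 0.04, against -0.04 over all genes and -0.09 over those above 4.53. Ncbp1, a subunit of the nuclear cap-binding complex, rose by 2.18 (SE 0.25, limma adjusted p = 0.00191), from 4.29, 4.79 and 3.93 to 6.72, 6.63 and 6.21. Coil, the scaffold of Cajal bodies, rose by 2.06 (SE 0.27, adjusted p = 0.00401), from 4.65, 4.96 and 5.42 to 7.50, 7.08 and 6.62. Neither gene's groups overlapped.

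Lsm1, a subunit of the ring that binds the tail of mRNAs set for decay, rose by 1.80 (adjusted p = 0.00116) and Tut4 and Tut7, which add uridines to RNA ends, by 1.63 (adjusted p = 0.00228) and 0.87 (adjusted p = 0.0111). Lsm1 read 6.60, 6.37 and 6.73 in wild type and 8.24, 8.66 and 8.19 in the mutant. The cleavage factor gene Cstf2t rose by 1.21 (adjusted p = 0.00247), and Exosc10, a nuclear exosome nuclease, fell by 0.68 (adjusted p = 0.0223). Wild-type means of Ncbp1 (4.34) and Tut4 (4.28) lay below 4.53, in the range of the receptor genes, so the sizes of these differences are uncertain. Tut7 lost its call without wild type replicate 1 or 3 (adjusted p 0.0543 and 0.0567). Exosc10 lost it without any 1 wild-type array or mutant replicates 1 or 2 (0.0601 to 0.0922).

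Slbp, which binds the stem-loop of the mRNA, read 10.28, 9.94 and 10.21 in wild type and 10.43, 10.29 and 9.90 in the mutant (0.06, SE 0.18, adjusted p = 0.914). Npat, the activator of clustered histone gene transcription, read 6.04, 5.72 and 6.09 against 7.36, 7.43 and 6.27 (1.07, SE 0.31, adjusted p = 0.0875). All 3 mutant arrays of Npat lay above the wild type, mutant replicate 3 only just. Without that array the difference was 1.44 (adjusted p = 0.00365), and the list had 9 rises and 1 fall.

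Of 31 histone chaperones and exchange factors, which carry histones and place them on DNA, 2 rose and 2 fell (6.4% and 4.04% of all genes), and 4 were higher and 7 lower at an unadjusted p under 0.05 in limma (11% and 13.5%). With 12.9% of the list called, against 10.4% of all genes and 16.3% of genes with a mean above 4.53, the share is near the background. All but 2 of the list had such a mean. The median difference was -0.17, against -0.04 over all genes and -0.09 over those above 4.53. Hat1, which acetylates new H4, rose by 1.11 (adjusted p = 0.0400) and Spty2d1 by 0.68 (adjusted p = 0.0477). Cabin1, a partner of Hira in placing H3.3, fell by 0.71 (adjusted p = 0.0136). Srcap, the motor of the complex that puts H2A.Z into nucleosomes, fell by 0.70 (adjusted p = 0.0183), from 7.03, 7.04 and 6.97 to 6.31, 6.42 and 6.21. Other genes of H2A.Z exchange, named after their values were seen, were Vps72 (-0.25), Ep400 (0.01) and Anp32e (-0.33), and these did not pass. Nasp (-0.07), Npm2 (-0.04) and Hira (-0.18), which carry histones in the oocyte or place H3.3, did not pass either.

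None of these 4 chaperone calls held in every fit. Without wild type replicates 1, 2 and 3 the list had 0, 1 and 0 calls, and without mutant replicates 1, 2 and 3 it had 1, 2 and 3. Spty2d1 lost its call without any 1 array (adjusted p 0.0522 to 0.165), and Hat1 without any but mutant replicate 3 (0.100 to 0.127). Cabin1 lost it without wild type replicate 1 or 3 (0.0620 and 0.0687), and Srcap without any wild-type array or mutant replicate 1 (0.0629 to 0.0787).

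Replication-dependent histone genes are part of the S-phase programme, so 24 genes of that phase were read beside them. Of these 3 rose and 2 fell (6.4% and 4.04% of all genes), and 3 were higher and 8 lower at an unadjusted p under 0.05 in limma (11% and 13.5%). All of them had a mean over the 6 arrays above 4.53. Of the 12310 genes with such a mean 16.3% were called (1231 higher and 779 lower), against 20.8% of the list. The median difference was -0.31, against -0.04 over all genes and -0.09 over those above 4.53. Ccne1, a cyclin that starts S phase, read 5.29, 5.58 and 5.32 in wild type and 7.60, 7.61 and 7.55 in the mutant (2.19, SE 0.14, 4.56-fold higher, limma adjusted p = 0.000198). Its sister gene Ccne2 rose by 0.91 (adjusted p = 0.0443) and Rrm2, which makes DNA precursors, by 0.70 (adjusted p = 0.0377). The DNA polymerase gene Pole fell by 1.06 (adjusted p = 0.00486) and the primase gene Prim1 by 1.05 (adjusted p = 0.00663). Ccne2 and Rrm2 lost their calls without any 1 array except mutant replicate 3 (adjusted p 0.0793 to 0.157 and 0.0602 to 0.145), which leaves 1 rise and 2 falls.

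**Figure D4:**
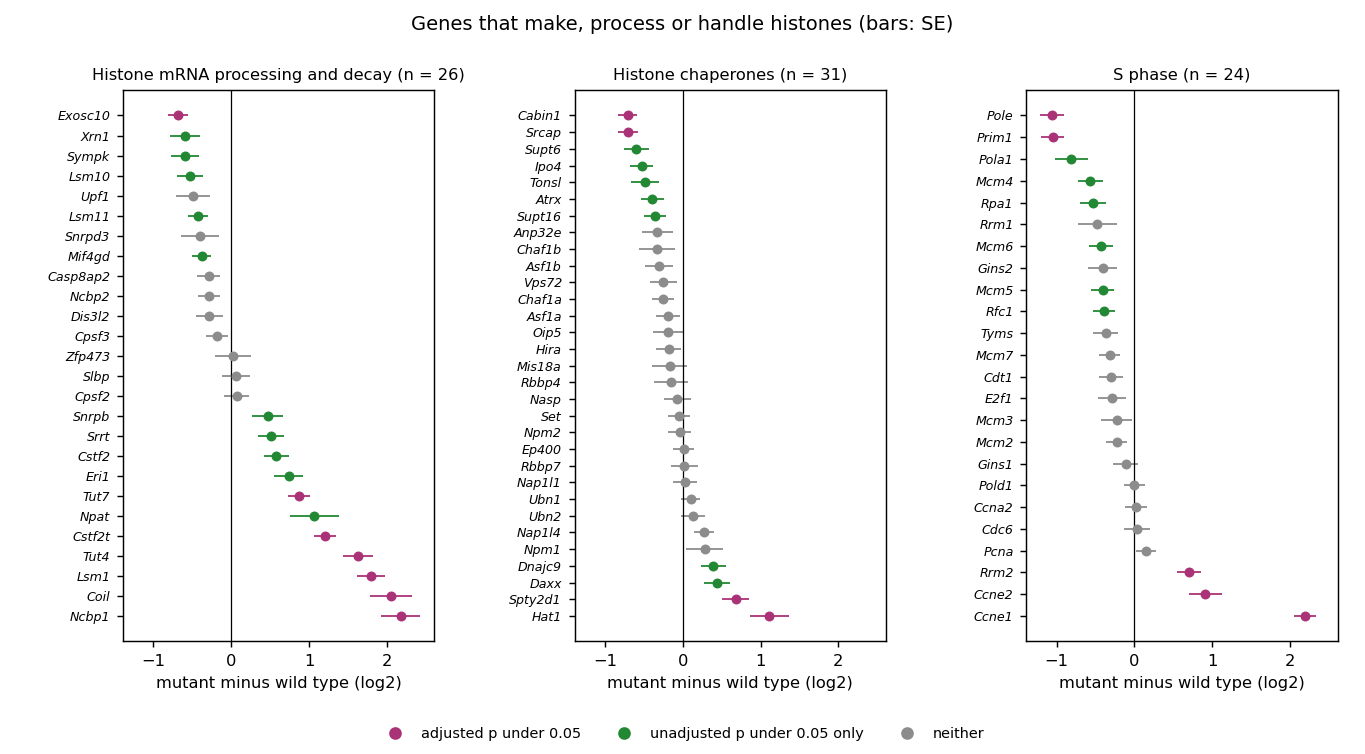
Difference between genotypes (mutant minus wild type, log2, x axis) for 26 genes of histone mRNA processing and decay, 31 histone chaperones and 24 S-phase genes, with standard errors from limma as bars. Ccne1 (2.19) and Coil (2.06) lie far to the right, as does Ncbp1 (2.18), whose wild-type mean is below 4.53 so that its size and place are uncertain, and Pole (-1.06) and Prim1 (-1.05) farthest to the left.

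Markers of other ovarian cells were read on the same arrays. The mean over 16 cumulus and granulosa markers was 4.91 to 5.09 in wild type and 4.94 to 5.24 in the mutant, with overlap. Of these Nr5a2 (1.46) and Kitl were higher and Ptgs2 lower past the threshold. That is 18.8% of the list, against 10.4% of all genes and 16.3% of genes with a mean above 4.53, a share near the background. Kitl went from 3.72, below 4.53, to 5.66, and Ptgs2 from 5.14 to 4.14, below 4.53, so their sizes are uncertain. Of the list, 4 of 16 had both means below 4.53. Fshr, which defines granulosa cells, stood at 4.04 and 4.24, below that level, and so did Amhr2 at 4.31 and 4.17. The other 12 did not have both means below it. Gja1 (5.59 and 5.65), Ccnd2 (5.51 and 5.70) and Foxl2 (5.14 and 5.08) stood above it in both genotypes. Of 11 theca and stroma markers 1 was higher (Pdgfra, from 4.22, below 4.53, to 4.89), and of 10 blood, immune and endothelial markers 1 was lower (Pecam1, -1.07). Both means were below 4.53 in 7 of the 11 and 6 of the 10, and the list means overlapped between genotypes, at 4.03 to 4.18 against 3.98 to 4.30 and 4.31 to 4.59 against 4.34 to 4.45. The part of other cells in the histone differences was not tested.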

How the data were processed

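RNA of 6 oocyte samples was amplified by a whole-transcript method and hybridised, 1 sample to an array. The authors deposited 1 log2 value for each probe set, made with GCOS, Affymetrix Expression Console 1.1 and RMA, per the submitters' processing notes. The array's genome build was not given in the sources used here. Of 35556 rows, 21789 named 1 gene by the platform annotation, 1621 several and 12146 none here. All 48 member symbols are current in RefSeq (GRCm38.p6).

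A linear model with genotype as the only term was fitted to all rows (limma 3.58.1, R 4.3.3, two-sided tests), Benjamini-Hochberg adjusted over all 35556 rows. The pipeline was tested on simulated data with 50 rows changed at each fold. It called 2% of 1.5-fold, 18% of 2-fold and 78% of 4-fold changes, so a gene without a call may still have changed. Fewer rows changed there than were called here, which makes the adjustment stricter. Members, classes and lists were chosen with earlier results of these data known. Array values were given for members past an adjusted or unadjusted p of 0.05, the highest of each family, linker, H2A.Z, H2A.X and H3.3 genes, and shared rows that passed. Further named genes were list genes past the threshold (up to 6 each way), Slbp, Npat, Npm2, Nasp, Hira and Cenpa. Same-numbered arrays of the 2 genotypes correlated in their deviations at 0.147, -0.099 and 0.027, and arrays of unlike number at -0.216 to 0.183. These values show no closer tie within a number. Whether samples of the same number share a batch cannot be told from them. The arrays' number limits the precision.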

Additional observations from a re-analysis of the deposited data

How the results depend on the processing

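The 15 alternatives were quantile and cyclic loess normalization, median centring, rows above the median level, 1 row per gene, the mean of a gene's rows, an intensity trend, array weights, the replicate block and 6 fits without 1 array. Marf1, H4c4, H2bc1, H2ac1 and H2az1 kept direction and call in all of them (H2ac1 at an adjusted p of up to 0.0488). Of 34 named genes and shared rows that passed, 15 passed under every alternative run for them, 19 lost the call in at least 1 and 0 changed direction. Median fold changes over all rows moved by under 0.1. Histone calls numbered 4, and 7 among rows above the median level, 8 with 1 row per gene and 7 with array weights, with H2az1 the 1 rise each time. Without 1 array they numbered 4 to 5. Shared rows had 13 calls, 8 with median centring, and 2 to 13 without 1 array, and with 1 row per gene they are not in the fit. Processing genes had 7 calls, 12 with 1 row per gene (9 higher and 3 lower), and 5 to 10 without 1 array. Chaperones had 4, 2 with median centring (0 higher and 2 lower) and 0 to 3 without 1 array. S-phase genes had 5, 3 with median centring (1 higher and 2 lower) and 3 to 5 without 1 array. All probe sets had 2765 calls (61.5% higher), 1368 to 2804 without 1 array (1399, 1664 and 1368 without wild type replicates 1, 2 and 3, and 1693 and 1726 without mutant replicates 1 and 2), and 73.8% were higher with cyclic loess. The causes were not tested.

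The labels give both genotypes the same replicate numbers and do not say whether samples of the same number belong together. With the replicate block, shared rows had 7 calls, chaperones 0 (4 without it), histones 5 and all probe sets 1946. Some genes with no call changed sign. Nasp was 0.01 with quantile normalization, 0.06 with cyclic loess and 0.01 with array weights, and -0.13 to 0.05 without 1 array. Npm2 was 0.03, 0.08 and 0.03 in these fits and -0.11 to 0.08 without 1 array. H3f3a was 0.10 with cyclic loess and 0.00 with array weights, and -0.15 to 0.10 without 1 array. Without 1 array Macroh2a2 ranged from -0.67 to 0.13, H1f6 from -0.07 to 0.08 and Slbp from -0.05 to 0.22. The deposited values hold no background measure.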

Other observations

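Proteins that take the place of histones were read too. Of 6 genes, the centromeric H3 variant Cenpa and the sperm nuclear protein genes Prm1, Prm2, Prm3, Tnp1 and Tnp2, 0 passed (1 lower and 0 higher at an unadjusted p under 0.05 in limma). Cenpa, which marks the centromere, read 7.36, 7.72 and 7.77 in wild type and 7.70, 8.11 and 7.80 in the mutant, with overlap (0.25, SE 0.18, adjusted p = 0.536).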
